A study of Mus musculus with 6 samples.

Results

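The genes described here are 10 acute phase genes of the liver outside the orosomucoid and serum amyloid A families, named Lcn2, Hp, Hpx, Lbp, Itih3, Itih4, Fgl1, Socs3, Serpina3n and Il1rn. They were chosen by name, and no level or fold change entered the rule, although earlier results of these data were known. All 10 stood in the table of 20914 genes, and all 10 passed the filter on low counts that left 13725 genes for testing. RNA from mouse liver had been sequenced in 6 libraries, 3 labelled DOX and 3 labelled PBS. Both groups carried the same genotype label, BucheKI/KI-Hep, with Alb-Cre in the titles, and the same BDL treatment label. BDL is the usual short form of bile duct ligation in mouse liver work, but the labels spell out neither it nor DOX, CKI or S10D. Alb-Cre is a recombinase driven by the albumin promoter, which is active in hepatocytes. The sources used here give no age, sex, dose or time of the mice, and no group without BDL or without the knock-in was analysed here, so the levels below cannot be set against those of an uninjured liver.

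The acute phase response is the change in plasma protein synthesis that follows infection or injury. In its best known arm, interleukin 6 binds its receptor and the shared subunit gp130 on hepatocytes, JAK kinases phosphorylate STAT3, and STAT3 acts with C/EBP and NF-kB factors at the genes of secreted plasma proteins. SOCS3 is made in the same response and blocks the kinases at gp130. Several of these proteins bind what injury or bacteria set free, such as haemoglobin, haem, siderophores and lipopolysaccharide.

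Il6 itself was below the filter on low counts, with 7, 5 and 14 reads in DOX replicates 1 to 3, against 5, 2 and 1 in PBS replicates 1 to 3. In CPM its DOX libraries, at 0.148 to 0.378, lay above its PBS libraries, at 0.0267 to 0.115 (exact two-sided permutation p = 0.1, as low as 3 against 3 libraries can give). Whether the 10 genes depended on IL-6 in these livers was not measured. Promoter windows of 300 bases from RefSeq (build GRCm38.p6, 250 bases before to 50 after the annotated start) were matched by symbol for 7 of the 10 genes, in 9 windows, since Il1rn has several starts. Both strands were searched for the STAT letters TTCNNNGAA, the C/EBP letters TTGCNNAA and the letters CTGGGAA of the type 2 IL-6 response element. The STAT letters were found in 2 of the 9 windows, against 8.3% of all 32851 windows of that length. The C/EBP letters were in 2 of 9, against 10.8% of all windows, and CTGGGAA in 3 of 9, all of them windows of Il1rn of which 2 overlap at one site, against 11.1%. A match describes the letters in a window and is no evidence of binding. The windows with STAT or C/EBP letters are shown because those factors carry the response. Each is given 5′ to 3′ on the strand of its gene, with the matched letters in capitals. Lcn2 (chr2:32387690-32387989, minus strand) and Hpx (chr7:105600067-105600366, minus strand) hold a C/EBP match, at positions 35 and 51 counted from 1 at the 5′ end of the window. Socs3 (chr11:117969317-117969616, minus strand) and Itih4 (chr14:30886226-30886525, plus strand) hold a STAT match, at positions 97 and 200. The windows of Lcn2 and Socs3 lie wholly inside the gene spans given below, downstream of the outermost GENCODE start.
Lcn2: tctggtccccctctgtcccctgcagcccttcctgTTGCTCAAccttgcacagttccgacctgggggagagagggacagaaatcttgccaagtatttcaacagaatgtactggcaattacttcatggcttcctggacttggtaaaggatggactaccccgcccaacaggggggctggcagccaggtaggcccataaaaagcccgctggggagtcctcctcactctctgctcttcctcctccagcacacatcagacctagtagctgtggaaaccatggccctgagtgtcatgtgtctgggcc
Hpx: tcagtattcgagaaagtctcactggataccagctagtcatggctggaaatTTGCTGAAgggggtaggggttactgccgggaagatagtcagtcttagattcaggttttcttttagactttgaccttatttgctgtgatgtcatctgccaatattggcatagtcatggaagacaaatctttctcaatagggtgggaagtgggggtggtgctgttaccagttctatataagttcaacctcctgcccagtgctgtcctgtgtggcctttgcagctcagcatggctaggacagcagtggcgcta
Socs3: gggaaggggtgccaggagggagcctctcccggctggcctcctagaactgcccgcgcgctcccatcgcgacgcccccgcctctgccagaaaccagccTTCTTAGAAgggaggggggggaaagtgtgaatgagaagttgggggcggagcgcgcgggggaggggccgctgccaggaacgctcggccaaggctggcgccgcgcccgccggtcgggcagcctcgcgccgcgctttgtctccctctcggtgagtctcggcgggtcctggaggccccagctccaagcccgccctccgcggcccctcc
Itih4: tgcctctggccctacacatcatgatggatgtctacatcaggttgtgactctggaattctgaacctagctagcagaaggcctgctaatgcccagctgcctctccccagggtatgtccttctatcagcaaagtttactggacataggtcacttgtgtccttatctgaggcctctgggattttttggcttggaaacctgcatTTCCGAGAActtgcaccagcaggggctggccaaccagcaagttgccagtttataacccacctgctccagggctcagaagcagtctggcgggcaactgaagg

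Total counts per library ranged from 32826493 to 41102844. Bche, the gene of butyrylcholinesterase, stood at 447 to 969 CPM (counts relative to library size, scaled by TMM factors) in DOX libraries and at 193 to 245 CPM in PBS libraries. The groups did not overlap, and all DOX libraries lay above all PBS libraries for 7.84% of all genes. Bche itself did not pass in the main edgeR test (log2 fold change 1.67, SE 0.27, adjusted p = 0.106). Hepatocyte markers summed to 90531 to 147508 CPM in DOX libraries and 73628 to 92182 CPM in PBS libraries (6 of 12 negative, median log2 fold change 0.02). Most of each sum was Alb alone, at 60610 to 113461 CPM in DOX libraries and 45604 to 57710 CPM in PBS libraries, so the sums mainly follow that 1 gene. No hepatocyte marker passed in the main edgeR test, while DESeq2 called Alb and Fabp1 higher. Fabp1 was also called higher by edgeR without a filter, with a block for replicate number (adjusted p = 0.0150) and without DOX replicate 2 (adjusted p = 0.0305). Alb took 6.09% to 10.2% of counts in DOX libraries against 4.87% to 5.81% in PBS libraries. The labels do not say that the libraries came from separate animals, and part of the spread behind each p-value may therefore be technical.

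None of the 10 acute phase genes changed between DOX and PBS at an adjusted p under 0.05 (edgeR quasi-likelihood test, Benjamini-Hochberg over 13725 genes). Over the whole table, 0.0291% of genes passed (3 higher, 0.0219%, and 1 lower, 0.00729%), so that a count of 0 among 10 lies at the background. At an unadjusted p under 0.05 there was 1 of the 10, Itih3, which was lower, against 4.87% of all genes lower and 5.03% higher (9.9% in all). DESeq2 also called 0 of the 10, against 1.31% of all genes (0.947% higher and 0.364% lower), and edgeR without a filter called 0 of the 10, against 0.292% of 20914 genes (0.215% higher and 0.0765% lower). The log2 fold change was negative for 9 of the 10, from -0.55 for Socs3 to -0.004 for Lbp, and it was 0.02 for Itih4. The median was -0.27, beside -0.02 over all genes tested, of which 53% were negative. The count of negative values was 8 with RLE scaling and 10 when scaled by library size only, a setting that moved the median of all genes to -0.15. In 9 of the 10 genes the DOX and PBS libraries overlapped. The exception was Itih3, for which all 3 DOX libraries lay below all 3 PBS libraries, as they did for 9.01% of all genes, while the reverse held for 0 of the 10 and 7.84% of all genes.

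**Figure D1:**
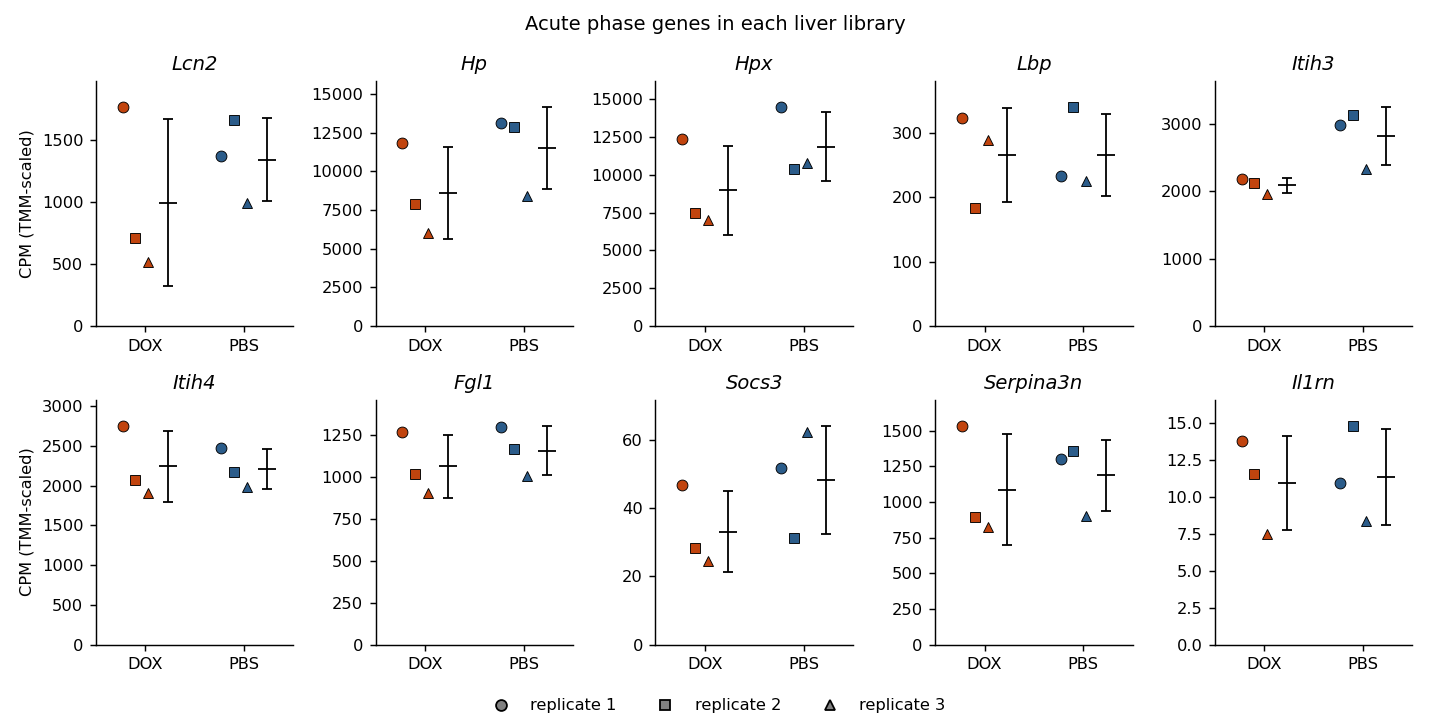
Level of each of the 10 acute phase genes in CPM (TMM-scaled, linear axis from 0) in the 3 DOX libraries (left, orange) and the 3 PBS libraries (right, blue). Symbols give the replicate number and the bars the mean and SD of 3 libraries. DOX replicate 1 is the highest DOX library in all 10 panels, and only for Itih3 do the groups not overlap.

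Hp, Hpx and Lcn2 encode proteins that bind iron-containing cargo. Hp, haptoglobin, which captures free haemoglobin (chromosome 8, 109575128 to 109579172, minus strand, protein coding), stood at 11833, 7914 and 5994 CPM in DOX replicates 1 to 3, against 13152, 12905 and 8429 CPM in PBS replicates 1 to 3. DOX replicate 3 was the lowest and DOX replicate 1 lay within the PBS range. The means were 8580.4 ± 2976 CPM in DOX and 11495 ± 2658 CPM in PBS (SD, n = 3 each) (log2 fold change -0.42, SE 0.29, adjusted p = 0.664). Hpx, hemopexin, which binds free haem (chromosome 7, 105591613 to 105600137, minus strand), stood at 12351, 7494 and 7037 CPM in DOX replicates 1 to 3, against 14454, 10344 and 10749 CPM in PBS replicates 1 to 3. Here too DOX replicates 2 and 3 lay below every PBS library while DOX replicate 1 exceeded 2 of them. The difference on the log2 scale was -0.40 (SE 0.27), with an adjusted p of 0.642. Together Hp and Hpx took 2.32%, 1.55% and 1.17% of all counts in DOX replicates 1 to 3, against 2.95%, 2.34% and 2.05% in PBS replicates 1 to 3. These shares are not scaled by TMM factors.

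Lcn2, lipocalin 2, which binds bacterial siderophores and thereby withholds iron (chromosome 2, 32384633 to 32388252, minus strand), varied more between libraries than any of the other 9 genes, 3.42-fold from the lowest to the highest library. It stood at 1766, 708 and 516 CPM in DOX replicates 1 to 3, against 1374, 1667 and 993 CPM in PBS replicates 1 to 3. The highest and the lowest of all 6 values were both DOX libraries. On the log2 scale the change was -0.43 (SE 0.42, 95% interval -1.40 to 0.54, adjusted p = 0.762). Without DOX replicate 1, its highest library, the change was -1.13 (SE 0.25), still not past the threshold over all genes (adjusted p = 0.223). Without DOX replicate 3, its lowest library, the change was -0.12. Neutrophils and injured duct epithelium are also known to make Lcn2. The 14 other neutrophil markers, of which 9 passed the filter, summed to 14.9 to 22.7 CPM in DOX libraries and 17.7 to 36.5 CPM in PBS libraries, so that Lcn2 stood 27.0 to 94.4 times above their sum in each library, and Ly6g had 0 or 1 reads. All 9 that were tested had a negative log2 fold change and none passed. Cholangiocyte markers were also negative in 11 of 11 tested genes (none passed with edgeR, and Tspan8 was called lower with DESeq2). Their summed levels were 140.5 to 272 CPM in DOX libraries and 286 to 410 CPM in PBS libraries, lowest in DOX replicate 3. Spp1 was the largest part of each sum, at 70.7 to 161 CPM in DOX libraries and 171 to 212 CPM in PBS libraries. Macrophage markers were negative in 5 of 14, with sums of 1240 to 1651 CPM in DOX libraries and 1435 to 1454 CPM in PBS libraries. The part of these cell types in the Lcn2 values was not tested, and in bulk RNA fewer cells of a type and less RNA per cell cannot be told apart.

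Lbp encodes the lipopolysaccharide binding protein, which hands bacterial lipopolysaccharide to CD14 and the TLR4 receptor (chromosome 2, 158306493 to 158332852, plus strand). It stood at 323, 183 and 289.8 CPM in DOX replicates 1 to 3, against 233, 339.8 and 226 CPM in PBS replicates 1 to 3. The groups overlapped throughout, and the change was close to 0 (log2 fold change -0.004, SE 0.24, 95% interval -0.54 to 0.53, adjusted p = 0.997). This interval spans 0.687-fold to 1.45-fold, so a change of any size within it is compatible with these libraries. Its partners did not pass either. Cd14 averaged 48.7 ± 23.2 CPM in DOX and 61.2 ± 23.1 CPM in PBS, and Tlr4 6.12 ± 1.54 CPM in DOX and 6.72 ± 0.658 CPM in PBS (SD, n = 3 each).

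Itih3 and Itih4 encode heavy chains of the inter-alpha-trypsin inhibitor family, plasma proteins that can bind the matrix sugar hyaluronan, although ITIH4 does not carry the bikunin light chain of the others. The 2 genes lie side by side on chromosome 14, Itih4 at 30886476 to 30902353 on the plus strand and Itih3 at 30908572 to 30923760 on the minus strand, with 6218 bases between them. Itih3 stood at 2180.1, 2129 and 1963 CPM in DOX replicates 1 to 3, against 2985, 3142 and 2327 CPM in PBS replicates 1 to 3. The means were 2091 ± 114 CPM in DOX and 2818 ± 432 CPM in PBS (SD, n = 3 each), and the 3 DOX libraries lay within a narrow range below the PBS libraries. The difference did not pass over all genes (log2 fold change -0.43, SE 0.16, 95% interval -0.80 to -0.06, adjusted p = 0.466). Exact two-sided permutation of the 6 libraries gave p = 0.1, as low as a design of this size can go. The log2 fold change was negative in all 17 settings run, from -0.56 to -0.34. The same held in all 17 settings for the sign of Lcn2, Hp, Hpx, Fgl1 and Socs3, and the settings reuse the same 6 libraries. Itih4 did not share the difference of Itih3. It stood at 2753, 2070.0 and 1911 CPM in DOX replicates 1 to 3, against 2473, 2174 and 1978 CPM in PBS replicates 1 to 3. Its groups overlapped (log2 fold change 0.02, SE 0.18, adjusted p = 0.978). Whether the change of Itih3 differs from that of its neighbour was not tested. Of the rest of the family, the log2 fold changes were -0.16 for Itih1 (SE 0.14), -0.10 for Itih2 (SE 0.15), -0.36 for Itih5 (SE 0.28) and 0.19 for Ambp (SE 0.20), which encodes bikunin, none past the threshold.

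Fgl1 encodes a fibrinogen-like protein secreted by hepatocytes, known as a ligand of the T cell receptor LAG3 (chromosome 8, 41191434 to 41215156, minus strand). It stood at 1267, 1017 and 901 CPM in DOX replicates 1 to 3, against 1298, 1167 and 1003 CPM in PBS replicates 1 to 3. The ranges largely coincided, and no change was called (log2 fold change -0.12, SE 0.17, adjusted p = 0.837). Serpina3n encodes a secreted inhibitor of serine proteases (chromosome 12, 104406729 to 104414329, plus strand). It stood at 1535, 897 and 826 CPM in DOX replicates 1 to 3, against 1302, 1361 and 902 CPM in PBS replicates 1 to 3. DOX replicate 1 was the highest of the 6 libraries and the other DOX libraries lay just below PBS replicate 3. The difference was not called (log2 fold change -0.13, SE 0.26, adjusted p = 0.899), and without DOX replicate 3 the log2 fold change was 0.036. Serpina3n has neighbouring copies of similar sequence. Of the windows of 50 bases along its longest annotated transcript, 6.9% also occur in other genes' transcripts, so the authors' counting could split some of its reads, while for each of the other 9 genes the share was under 0.5%.

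Socs3 and Il1rn encode brakes on the response. Socs3, the inhibitor of the kinases at gp130 (chromosome 11, 117966079 to 117970047, minus strand), stood at 46.7, 28.1 and 24.3 CPM in DOX replicates 1 to 3, against 51.6, 31.1 and 62.1 CPM in PBS replicates 1 to 3. Its log2 fold change was the most negative of the 10 with all libraries in the edgeR test (-0.55, SE 0.29, 95% interval -1.22 to 0.13, adjusted p = 0.569), and ranged from -0.87 without DOX replicate 1 to -0.32 without PBS replicate 3. DOX replicates 2 and 3 lay below all PBS libraries and DOX replicate 1 between them. Il1rn, the antagonist of the interleukin 1 receptor (chromosome 2, 24336853 to 24351494, plus strand), stood at 13.8, 11.5 and 7.50 CPM in DOX replicates 1 to 3, against 10.9, 14.8 and 8.34 CPM in PBS replicates 1 to 3. The order of the libraries was mixed between the groups (log2 fold change -0.05, SE 0.26, adjusted p = 0.963). Its counterpart Il1b, a ligand of that receptor, stood at 3.55, 4.67 and 3.27 CPM in DOX replicates 1 to 3, against 6.78, 3.45 and 9.79 CPM in PBS replicates 1 to 3 (log2 fold change -0.81, SE 0.35, adjusted p = 0.5002). The log2 fold change was 0.02 for the ligand Il1a (SE 0.30), 0.24 for the receptor Il1r1 (SE 0.27) and 0.25 for its accessory chain Il1rap (SE 0.12). Of 18 listed partners of the 10 genes (ligands, receptors and family members), 16 were tested and 0 passed, with 8 negative and 8 positive (median log2 fold change -0.04).

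**Figure D2:**
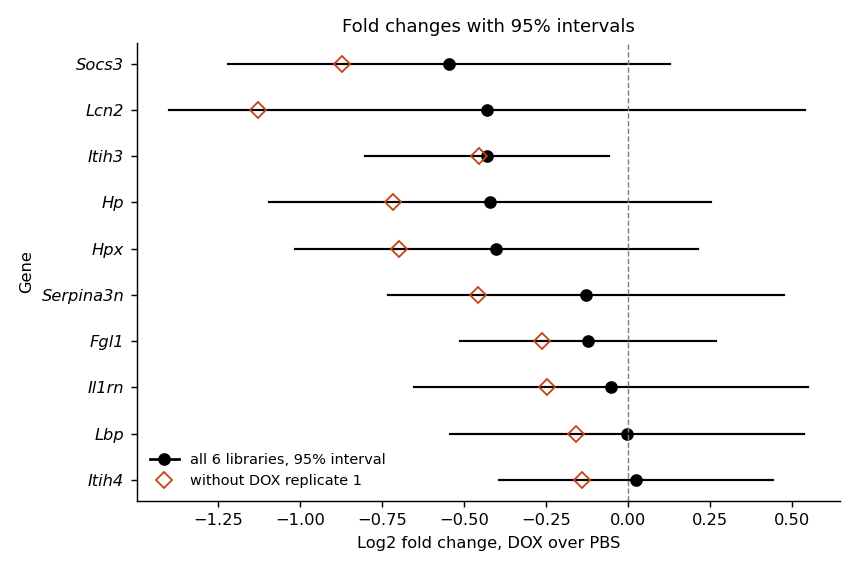
Log2 fold change of DOX over PBS for the 10 acute phase genes, with the 95% interval over all 6 libraries (black) and the value without DOX replicate 1 (open diamonds). Only the Itih3 interval lies wholly below 0. Without DOX replicate 1, the highest DOX library for all 10 genes, all 10 values are negative, to -1.13 for Lcn2.

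Per length, the 10 genes spanned a wide range of levels. In the deposited FPKM (counts relative to gene length and library total), Hp averaged 6128 ± 2227 FPKM in DOX and 8934 ± 1978 FPKM in PBS, and Hpx 5798 ± 1966 FPKM in DOX and 8410 ± 1787 FPKM in PBS (SD, n = 3 each). They ranked 7 and 8 among all 20914 genes by mean FPKM over the 6 libraries, and did not differ from each other beyond their spread. Lcn2 followed at 1123 ± 764 FPKM in DOX and 1644 ± 368 FPKM in PBS, at rank 44. Fgl1, Itih3, Itih4 and Serpina3n came next at ranks 72, 77, 86 and 125, with group means of 467 to 769 FPKM in DOX and 557 to 915 FPKM in PBS. The libraries of Fgl1, Itih3 and Itih4 overlapped one another, as did those of Itih4 and Serpina3n. Lbp averaged 99.8 ± 25.2 FPKM in DOX and 110 ± 22.3 FPKM in PBS. Socs3 averaged 11.6 ± 4.34 FPKM in DOX and 18.6 ± 6.55 FPKM in PBS, and Il1rn 3.75 ± 1.199 FPKM in DOX and 4.22 ± 1.07 FPKM in PBS (SD, n = 3 each). Socs3 and Il1rn were thus the lowest of the 10 per length, below Lbp in every library. The 10 genes together took 3.27%, 2.26% and 1.76% of all counts in DOX replicates 1 to 3, against 3.99%, 3.34% and 2.85% in PBS replicates 1 to 3. FPKM and shares of counts are not scaled by TMM factors, so their group differences can depart from those in CPM. Itih4 averaged 679 FPKM in DOX and 731 FPKM in PBS, but 2244 CPM in DOX and 2208 CPM in PBS.

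The spread within the DOX group had the same order in nearly every gene. DOX replicate 1 was the highest DOX library for 10 of 10 genes, and DOX replicate 3 the lowest for 9 of 10, with Lbp as the exception. Mean log2 CPM also fell from DOX replicate 1 to 3 in other positive acute phase genes, at 8.90, 8.39 and 8.32. It did so too for IL-6 type signalling, transcription factors, partners, and macrophage, cholangiocyte, and endothelial and stellate markers. It did not for negative acute phase genes, Serpina3n copies, or neutrophil and hepatocyte markers. The share of all genes with this order was not counted. DOX replicate 1 stood 2.88-fold above the mean of DOX replicates 2 and 3 for Lcn2, 1.78-fold for Socs3 and for Serpina3n, 1.70-fold for Hp and for Hpx, and 1.07-fold for Itih3. In PBS, replicate 3 was the lowest library for 8 of 10 genes, with Hpx and Socs3 as the exceptions, and for Socs3 it was the highest. Averaged over the 10 genes, log2 CPM lay 0.31 above the gene means in DOX replicate 1, 0.28 below in DOX replicate 2 and 0.45 below in DOX replicate 3, against 0.26 above, 0.24 above and 0.07 below in PBS replicates 1 to 3. On that average DOX replicate 1 was thus no lower than the PBS libraries. As the highest DOX library for all 10 genes, its removal was bound to lower the DOX mean of each. Without DOX replicate 1 the median log2 fold change was -0.46. Lcn2, Hp, Hpx, Itih3 and Socs3 were lower at an unadjusted p under 0.05, 5 of the 10 genes against 4.77% of 13937 genes tested. Several of these genes varied together (r = 0.95 for Lcn2 with Hp), so they do not count as 5 separate results. None of the 10 passed after adjustment in that edgeR fit (lowest adjusted p = 0.223, Lcn2). At the same unadjusted p there were 0 of the 10 without DOX replicate 2, DOX replicate 3 or PBS replicate 1. There was 1 without PBS replicate 2 and 1 without PBS replicate 3. With all 6 libraries there were 3 with a block for replicate number (Hp, Hpx and Itih3) and 2 without the filter on low counts (Itih3 and Socs3). The other fits on all 6 libraries had 0 or 1. The shares of all genes at that p in the block and unfiltered fits are not given here. The median was -0.09 without DOX replicate 3, and -0.16 without DOX replicate 2 or without PBS replicate 1.

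**Figure D3:**
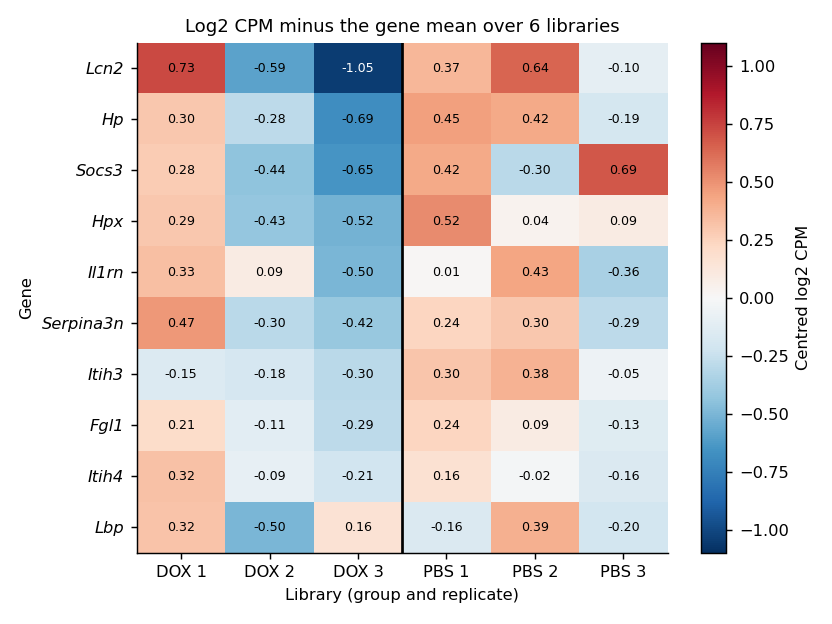
Log2 CPM of each gene minus its mean over the 6 libraries, with DOX libraries left of the line and PBS libraries right of it, and genes ordered by their value in DOX replicate 3. Red is above and blue below the gene mean. DOX replicate 3 is the lowest column for all genes but Lbp, down to -1.05 for Lcn2, and DOX replicate 1 is above the gene mean for all but Itih3.

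Pearson correlations of log2 CPM over the 6 libraries describe how the genes moved together. They rest on 6 points that share library, depth and group. The median r of the 45 pairs was 0.67, from -0.12 for Lbp with Socs3 to 0.95 for Hp with Fgl1. Lcn2 followed the mean of the other 9 genes most closely (r = 0.98), then Hp (r = 0.96), Fgl1 (r = 0.94) and Serpina3n (r = 0.94). Lbp (r = 0.34) and Socs3 (r = 0.45) followed it least. With group means removed, the median over the pairs was 0.72. Hp and Fgl1 had r = 0.97 and Itih4 and Fgl1 r = 0.98 on that scale. Itih3 and Socs3 had r = -0.37. Among 9343 other genes with a mean of at least 5 CPM, those most like the mean profile of the 10 were Pdia5, a protein disulfide isomerase, Endov and Cobl (r = 0.99 each). For Hp the most alike were Brox and Il10rb, a subunit of the interleukin 10 receptor (r = 0.997 and 0.99). Among so many genes and over 6 points, the highest r was at least 0.97 for each of the 10 genes, and these names are given as a description.

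Upstream of the 10 genes, 17 of 20 genes of IL-6 type signalling were tested, and 0 passed in either direction (median log2 fold change -0.02, 10 negative and 7 positive). Il6ra, the IL-6 receptor, averaged 46.8 ± 2.61 CPM in DOX and 41.2 ± 1.59 CPM in PBS with no overlap (log2 fold change 0.18, SE 0.08, adjusted p = 0.505). Clcf1, a cytokine of the family, averaged 3.21 ± 0.255 CPM in DOX and 5.12 ± 1.88 CPM in PBS, also with no overlap (log2 fold change -0.67, SE 0.27, adjusted p = 0.484). Lif, another ligand, stood at 1.07, 1.21 and 0.189 CPM in DOX replicates 1 to 3, against 1.75, 3.21 and 1.02 CPM in PBS replicates 1 to 3 (adjusted p = 0.547), and for Cish, a relative of Socs3, the log2 fold change was -0.28 (SE 0.13). For Il6st, which encodes gp130, the log2 fold change was 0.21 (SE 0.20), and for Stat3 it was 0.17 (SE 0.12). The ligands Il11 and Osm, like Il6, were below the filter, with 1 to 9 reads in any library. Of the 13 transcription factors listed, 0 passed and 11 were negative (median -0.10). The log2 fold change of Foxa2 was -0.20 (SE 0.11) with no overlap, that of Cebpa -0.16 (SE 0.11) and that of Nfkbiz -0.14 (SE 0.13). For Cebpb and Cebpd, both C/EBP factors, it was 0.05 each (SE 0.11 and 0.10).

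Of 24 further positive acute phase genes, all tested, 0 passed, with 17 negative and a median of -0.16. Nnmt, nicotinamide N-methyltransferase, stood at 103, 154 and 124 CPM in DOX replicates 1 to 3, against 253, 325 and 239.8 CPM in PBS replicates 1 to 3. Its groups were far apart, -1.102 on the log2 scale (SE 0.18). Nnmt did not pass with edgeR after the filter on low counts (adjusted p = 0.106), and was called lower with edgeR without that filter (adjusted p = 0.00941) and with DESeq2 (adjusted p = 3.51e-06). A2m had 1 to 18 reads in DOX libraries and 17 to 33 in PBS libraries (adjusted p = 0.5005), and for Hamp, which encodes the iron hormone hepcidin, the log2 fold change was -0.22 (SE 0.15). For the fibrinogen chains it was 0.04 in Fga (SE 0.25), 0.21 in Fgb (SE 0.22) and 0.07 in Fgg (SE 0.23), none past the threshold.

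Of 14 genes known to fall in the acute phase, 0 passed and 12 were positive (median 0.16, and 0.03 when scaled by library size only). Alb stood at 105009, 60610.4 and 113461 CPM in DOX replicates 1 to 3, against 45604, 57710.4 and 52301 CPM in PBS replicates 1 to 3, which did not overlap (log2 fold change 0.84, SE 0.31, edgeR adjusted p = 0.457), and DESeq2 called it higher (adjusted p = 0.0180). Ttr, transthyretin, averaged 1526 ± 234 CPM in DOX and 1169 ± 47.6 CPM in PBS, without overlap (log2 fold change 0.38, SE 0.15, adjusted p = 0.474). For Apoa4 the values overlapped (log2 fold change 1.77, SE 0.47, adjusted p = 0.350), as they did for Fetub (0.33, SE 0.18).

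**Figure D4:**
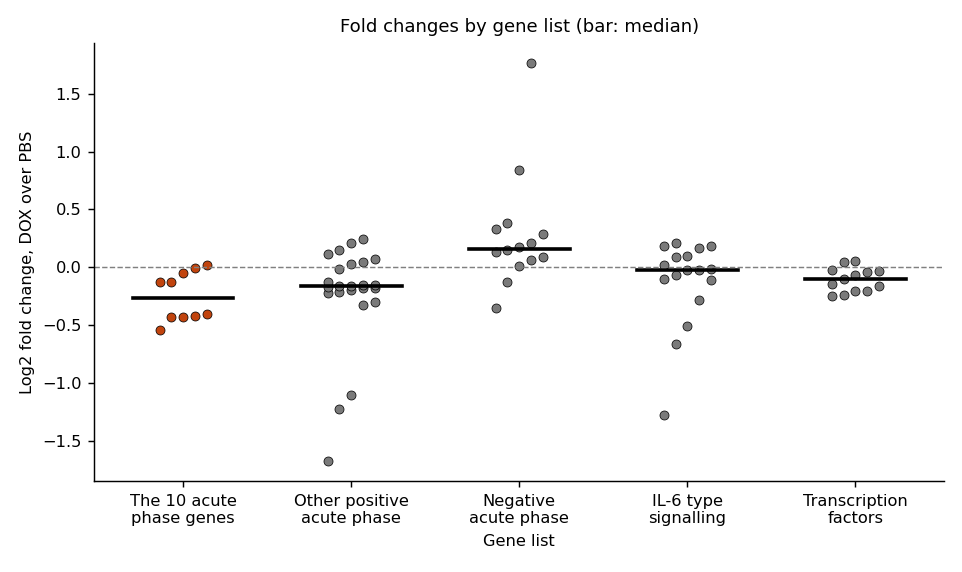
Log2 fold change of DOX over PBS (linear axis) for each tested gene of 5 lists, with a bar at the list's median. The 10 acute phase genes have a median of -0.27, other positive acute phase genes -0.16, negative acute phase genes 0.16, IL-6 type signalling -0.02 and transcription factors -0.10, and no gene shown passed the threshold in the filtered edgeR test without a block.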

How the data were processed

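Liver RNA of 6 libraries, 3 DOX and 3 PBS, was analysed. Per the labels' protocols, total RNA was extracted with a column kit and made into libraries with a SMARTER mRNA-Seq kit. Per the submitters' processing notes the builds were GRCm38 and mm10, while no aligner, counter or strand setting is given in the sources used here. Raw counts and FPKM were deposited by the authors. Tested on the files, FPKM equal counts divided by 1 length per gene and the library total for 18913 of 18913 genes (relative tolerance 1e-05).

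Counts were tested with edgeR 4.0.16 (R 4.3.3; filterByExpr, TMM, quasi-likelihood in its legacy form), DOX over PBS with no block, over all 13725 genes, with Benjamini-Hochberg adjustment at 0.05. Standard errors come from the F statistic. CPM are counts relative to the library total times the TMM factor (0.902 to 1.07), and log2 CPM for correlations and permutation tests had 0.5 added. The procedure was tested on simulated counts. Alternatives used DESeq2 1.42.0, limma 3.58.1 (voom, and log2 FPKM plus 1 or 0.1), other scalings and filters, a replicate block and each library left out. Libraries of 1 group were never alike within sampling noise (chi-square divided by its degrees of freedom, 33.0 to 103). In depth, 3 counts correspond to 0.0730 to 0.0914 CPM.

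The 10 genes and all lists were chosen with earlier results of these data known. The text names the 10 genes, up to 4 genes of smallest p per list, IL-6 family ligands below the filter, and the genes most like the 10. Fga, Fgb, Fgg, Cebpb, Cebpd, Il6st, Stat3, Cd14, Tlr4, Itih2, Ambp, Il1a and Il1r1 were named for their role, after values were seen. Coordinates are those of GENCODE M21 on GRCm38, which lists no other gene overlapping the 10. A few genes that this rule would name are not reported here.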

Additional observations from a re-analysis of the deposited data

How the results depend on the processing

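In each of 16 alternatives 0 of the 10 acute phase genes passed (lowest adjusted p = 0.129, Itih3 with DESeq2), and their median log2 fold change stayed negative, from -0.46 to -0.09. Of 160 gene values under alternatives, 13 changed sign. Lbp was 0.012 in log2 fold change with RLE scaling, 0.011 with DESeq2, 0.0038 without a filter, and 0.21 without DOX replicate 2 or PBS replicate 2 (-0.16 to 0.21 over libraries left out). Itih4 was -0.11 by library size only, -0.12 on log2 FPKM with either pseudocount, -0.14 without DOX replicate 1 and -0.05 without PBS replicate 3 (-0.14 to 0.13 over libraries left out). Serpina3n (0.036, lowest -0.46) and Il1rn (0.16) turned positive without DOX replicate 3, and Il1rn (0.18, lowest -0.25) without PBS replicate 2. Leaving out 1 library gave -1.13 to -0.12 for Lcn2, -0.72 to -0.22 for Hp, -0.70 to -0.24 for Hpx and -0.26 to -0.01 for Fgl1. Over all genes, DESeq2 gave 180 calls (130 higher, 50 lower), no filter 61 (45 and 16) and limma-voom 2 (1 higher). Scaling by library size only gave 5 (3 higher, 2 lower), and leaving out 1 library 3 to 4 (3 to 4 higher, 0 to 1 lower). The cause was not tested. With the replicate block 21 genes passed (17 higher, 4 lower). None of the 10 was among them, while Nnmt (lower, adjusted p = 0.0293) and Fabp1 (higher, adjusted p = 0.0150) were. Deviations of same-numbered libraries correlated at 0.23, 0.16 and 0.02, against -0.21 to 0.07 between DOX and PBS libraries of different number. The numbers were not taken as pairs in the main test, and whether they mark pairs was not tested. The fit with legacy = FALSE was chosen after seeing the data. In that edgeR fit Itih3 had an unadjusted p of 0.0605 (SE 0.20), and 0 of the 10 had one under 0.05. With 3 libraries a group, the ends of the 95% intervals of the 10 genes reach from 0.38-fold for Lcn2 to 1.46-fold for Il1rn. Each interval of the main test includes no change, except that of Itih3 (0.573-fold to 0.961-fold), and none is adjusted for the number of genes tested.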

Other observations

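Of 8 neighbouring copies of Serpina3n in the table, 6 were tested, and all 6 had a positive log2 fold change (median 0.23, and 0.096 without DOX replicate 1), with 0 past the threshold. Serpina3k, the most abundant copy, stood at 4700.1 ± 611 CPM in DOX and 4656 ± 1765 CPM in PBS, and Serpina3m at 623 ± 64.4 CPM in DOX and 584 ± 72.3 CPM in PBS (SD, n = 3 each). Serpina3g, Serpina3i and Serpina3f had log2 fold changes of 0.36 (SE 0.35), 0.64 (SE 0.67) and 0.48 (SE 0.54). Endothelial and stellate cell markers were positive in 12 of 12 (median 0.48), with 0 past the threshold. That median was 0.26 without DOX replicate 1 and ranged from 0.24 to 0.81 over the settings run. Their sums were 303, 205 and 185 CPM in DOX replicates 1 to 3, against 189.9, 89.4 and 199 CPM in PBS replicates 1 to 3.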
